A study of Homo sapiens
Mus musculus with 24 samples.

Results

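The genes described are 7 host genes of antigen presentation by MHC class II, taken by their symbols from the murine table: H2-Aa, H2-Ab1, H2-Eb1, Cd74, H2-DMa, H2-DMb1 and Ciita. All 7 were present among the 16667 murine genes. The tumors were xenografts of MDA-MB-231, a human triple negative breast cancer line, grown in B6/Rag1KO female mice, so murine reads come from the host tissue within the tumor and human reads from the cancer cells. Rag1 is needed to assemble antigen receptors, and hosts that lack it, as all 5 groups do by their labels, are known for having no mature T and B cells. Tags assigned to Rag1 were found at 0.880 to 23.1 normalized counts per library, and where they lie relative to the deleted part is not given, so they do not check the deletion. Mice were injected at 14 weeks of age, according to the labels.

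Lean (n = 4) mice ate a lean diet, were not randomized and served as the diet control. The other 4 groups ate a high-fat diet and were randomized once tumors had formed, for 4 weeks of treatment. CTRL (n = 4) received saline weekly. Chemo (n = 5) received doxorubicin at 2 mg/kg and cyclophosphamide at 100 mg/kg weekly. MC (n = 5) had moringa seed concentrate as 0.6% of the diet, and MC + Chemo (n = 6) had both. Each library is from a different mouse, whose number follows the group in its name. The title of MC + Chemo 5 gives that group, while another of its labels reads as MC.

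MHC class II molecules are pairs of an alpha and a beta chain that hold peptides from endocytosed proteins at the surface of dendritic cells, macrophages and B cells, where CD4 T cells read them. The invariant chain occupies the peptide groove during transport, and the H2-DM heterodimer exchanges its last fragment for peptide. Ciita is the transactivator that switches these genes on together, at a high level in dendritic cells and B cells and after interferon gamma in macrophages.

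The murine counts summed to 3664056 to 9892470 per library. Human counts made up 47.8% to 74.0% of each library. Lean 3, MC 41 and MC 42 had an additional RNA cleanup. Transcripts of skeletal muscle and fat differed widely between libraries, with a mean log2 level of the muscle list from 2.64 to 11.97 and of the adipocyte list from 3.47 to 12.10. Levels below are normalized counts, which are read counts divided by the size factor of the library. They are from 3′ tags and are compared between libraries, not between genes.

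H2-Ab1 encodes the beta chain of the I-A molecule. Its level was 12738, 11071, 10037 and 10816 in Lean 3, 21, 24 and 54, and 5332, 11690, 13035 and 9736 in CTRL 17, 31, 44 and 70. Chemo 19, 30, 33, 34 and 67 had 10548, 10393, 11521, 12077 and 6526. MC 6, 41, 42, 48 and 59 had 4648, 6161, 11031, 12872 and 13745, and the 6 MC + Chemo libraries ranged from 4289 over a median of 8335 to 12240.0. The Lean libraries lay between 10037 and 12738, whereas each obese group reached down to 6526 or lower, and every pair of groups overlapped. The means were 11165 ± 1137 in Lean, 9948 ± 3362 in CTRL, 10213 ± 2175 in Chemo, 9691 ± 4069.7 in MC and 7844 ± 2945 in MC + Chemo (SD). The coefficient of variation was 10.2% in Lean against 33.8%, 21.3%, 41.99% and 37.5% in the same order of the other groups.

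H2-Aa, the alpha chain that pairs with H2-Ab1, was 15268, 11499, 13600 and 14231 in Lean and 8599, 15299.5, 17604 and 14240.1 in CTRL, with mice in the order given above. In Chemo it was 15248, 12462, 9998, 17389 and 10591. In MC it was 4605, 9722, 15992, 15723 and 19489, and in MC + Chemo it ranged from 5808 over a median of 13431 to 19061. Both the lowest and the highest of the 24 levels were thus in the MC group, in MC 6 and MC 59, and differed 4.23-fold. The group means lay within 1.16-fold of each other, and differences between groups accounted for 5.19% of the variance of the log2 level. Both values were the lowest among the class II genes described. The variance share was 16.3% for both H2-Ab1 and H2-Eb1, 16.7% for H2-DMa, 18.6% for H2-DMb1, 22.2% for Cd74 and 36.5% for Ciita. The spread of group means in these other genes ran from 1.39-fold for H2-DMb1 to 2.76-fold for Ciita. The variance shares are not corrected for the number of groups. Groups drawn at random would also give some share, and no such baseline was computed. The share of Ciita includes its lowest level, 1.93 in MC + Chemo 25.

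H2-Eb1, which encodes the beta chain of the I-E molecule, ranged from 3267 in MC 6 to 12947 in CTRL 44. The I-E alpha chain is not among the genes described, and whether these hosts carry I-E at the cell surface was not measured. The mean of H2-Eb1 was 10059 ± 1241 in Lean, 8735 ± 3583 in CTRL, 8624 ± 1845 in Chemo, 8618 ± 3977 in MC and 6691 ± 2883 in MC + Chemo. The differences between means were smaller than the SD of CTRL.

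Cd74, the invariant chain, was 10704, 10849 and 7407 in Lean 3, 21 and 24 and 7929 in Lean 54. It was 3568, 8257, 11188 and 4924 in CTRL, and 6850.5, 8099, 10066 and 7421 in Chemo 19, 30, 33 and 34 with 4141 in Chemo 67. In MC it was 3949, 4693, 6657, 10989 and 11098, and in MC + Chemo it ranged from 3474 over a median of 5529 to 8188. All Lean libraries lay above 5 of the 6 MC + Chemo libraries, while MC + Chemo 50 fell within the Lean range.

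The 2 chains of H2-DM were lower counted but moved in the same way. H2-DMa ranged from 219 in MC 6 to 953 in CTRL 44, and H2-DMb1 from 428 in CTRL 17 to 1193 in CTRL 44. The means of H2-DMb1 were 835 ± 76.5 in Lean, 778 ± 326 in CTRL, 835 ± 216 in Chemo, 733 ± 253 in MC and 602 ± 164 in MC + Chemo. H2-DMb2 is a near-identical neighbor of H2-DMb1, and how short reads shared by the pair were counted is not stated, so the split between them is uncertain.

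Ciita had few counts, 1276 in all 24 libraries. Its level was 72.1, 78.7, 55.6 and 98.8 in Lean, 28.8, 67.6, 51.3 and 48.4 in CTRL, and 56.4, 82.6, 40.3, 74.8 and 31.4 in Chemo. MC libraries had 11.1, 49.9, 67.9, 55.9 and 45.3, and MC + Chemo libraries ranged from 1.93 over a median of 21.7 to 68.8. Of the MC + Chemo libraries, only MC + Chemo 50 and MC + Chemo 5 exceeded the lowest CTRL library. The lowest level, in MC + Chemo 25, rests on 1 count (exact 95% Poisson interval 0.0253 to 5.57, counting error only) in the shallowest library.

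**Figure D1:**
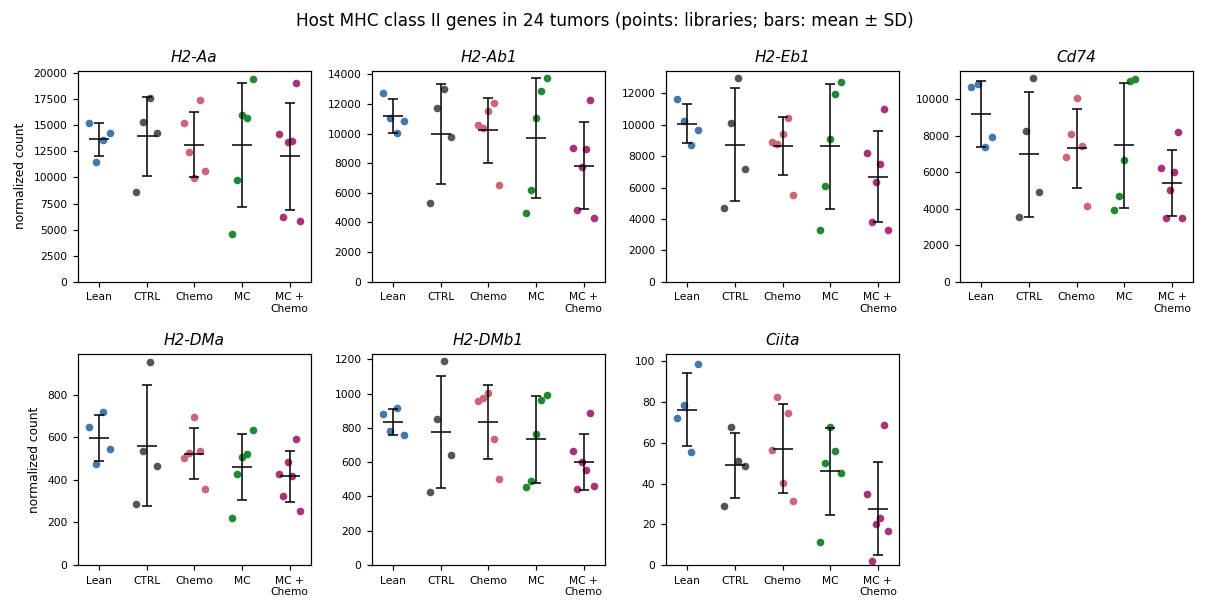
Normalized count (y axis, linear, from 0) of each of the 7 class II genes in the 5 groups; points are libraries and bars are mean ± SD (n = 4, 4, 5, 5 and 6). The MC + Chemo mean is the lowest for all 7 genes, and its libraries overlap those of every other group.

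The first question was whether chemotherapy, MC or both changed these genes relative to CTRL. A gene was called where the edgeR quasi-likelihood test gave an adjusted p below 0.05, with a mean normalized count above 30 and a fold change above 1.5. With Chemo, the log2 fold changes against CTRL ran from −0.09 for H2-DMa to 0.22 for Ciita, with a median of 0.04 (−0.0021 over all 15011 genes tested). None of the 7 was called by edgeR (0% of all genes) or by DESeq2 (0.0841% of all genes). None had an unadjusted edgeR p below 0.05 (4.53% of all genes), and none had groups that did not overlap (1.39% of all genes).

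With MC, the log2 fold changes against CTRL ran from −0.26 for H2-DMa to 0.11 for Cd74, with a median of −0.06. Again 0 of 7 were called by edgeR (0% of all genes) or DESeq2 (1.36%), 0 had an unadjusted edgeR p below 0.05 (11.8%) and 0 had groups apart (2.09%). The 95% interval for H2-Ab1 was −0.74 to 0.70, which includes changes of either sign.

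All 7 estimates were below 0 in MC + Chemo against CTRL, from −0.21 for H2-Aa to −0.77 for Ciita, with a median of −0.37 (0.01 over all genes). None passed the test by edgeR (0% of all genes) or DESeq2 (0.715%). The count was 0 also at an unadjusted edgeR p below 0.05 (12.4%) and for groups apart (2.54%). The interval was −1.03 to 0.35 for H2-Ab1 and −1.84 to 0.30 for Ciita (adjusted p = 0.545). Because the 7 genes moved together between libraries, as described below, 7 estimates of the same sign are not 7 separate observations.

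Markers of other tissues were read in the same comparison. In MC + Chemo against CTRL all 12 skeletal muscle genes were higher at an unadjusted edgeR p below 0.05 (median log2 fold change 7.35), of which edgeR called 0 and DESeq2 called 11. Their summed level was 105 to 163 in CTRL and 104 to 67646 in MC + Chemo. Of 12 adipocyte genes 8 were higher at that p (median 2.69), of 7 neutrophil genes 4 were higher, and of 8 NK and innate lymphoid genes 4 were lower and 1 higher. With the listed muscle and adipocyte genes taken out before scaling, the median of the class II genes was −0.37 as before. That refit still tested 14995 genes, against 15011 before, so other transcripts of these tissues stayed in. It cannot decide the part of the other tissues in the class II estimates, which was not tested.

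The second question was whether MC altered the response to chemotherapy. MC + Chemo against Chemo, which shares the MC + Chemo libraries with the comparison above, gave log2 fold changes from −0.13 for H2-Aa to −0.99 for Ciita and a median of −0.38 (0.02 over all genes). For Ciita the mean was 27.7 ± 22.8 in MC + Chemo (n = 6) and 57.1 ± 21.8 in Chemo (n = 5), the standard error of the log2 fold change was 0.48, and the interval was −1.999 to 0.018. Its edgeR p was 0.0538 (adjusted 0.460) and its DESeq2 p was 0.0333 (adjusted 0.357). No member was called by edgeR (0% of all genes) or DESeq2 (0.126%), and 0 had an unadjusted edgeR p below 0.05 (11%) or groups apart (1.33%). Without MC + Chemo 50 the Ciita estimate was −1.50, and without MC + Chemo 25 it was −0.79.

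MC + Chemo against MC gave a median of −0.32 (−0.04 over all genes; −0.16 without MC 59 and −0.50 without MC + Chemo 50), with 0 of 7 called by edgeR (0%) or DESeq2 (0.0481%), 0 at an unadjusted edgeR p below 0.05 (9.87%) and 0 with groups apart (0.886%). In the interaction of both treatments the median was −0.36, with Ciita at −0.93 (SE 0.72), and 0 of 7 were called by edgeR (0%) or DESeq2 (0%) or had an unadjusted edgeR p below 0.05 (6.87%). Leaving out CTRL 17 moved that median to −0.15, and leaving out CTRL 44 moved it to −0.61.

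Lean against CTRL compares groups on different diets, and Lean was not randomized, so diet may not be their only difference. The fit held 15029 genes. The log2 fold changes ran from −0.02 for H2-Aa to 0.64 for Ciita (median 0.17), and 0 of 7 were called by edgeR (0%) or DESeq2 (0.00601%). None had an unadjusted edgeR p below 0.05 (3.11%) or groups apart (2.93%). The mean of Ciita was 76.3 ± 17.9 in Lean and 49.0 ± 15.9 in CTRL, with an interval of −0.43 to 1.71.

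**Figure D2:**
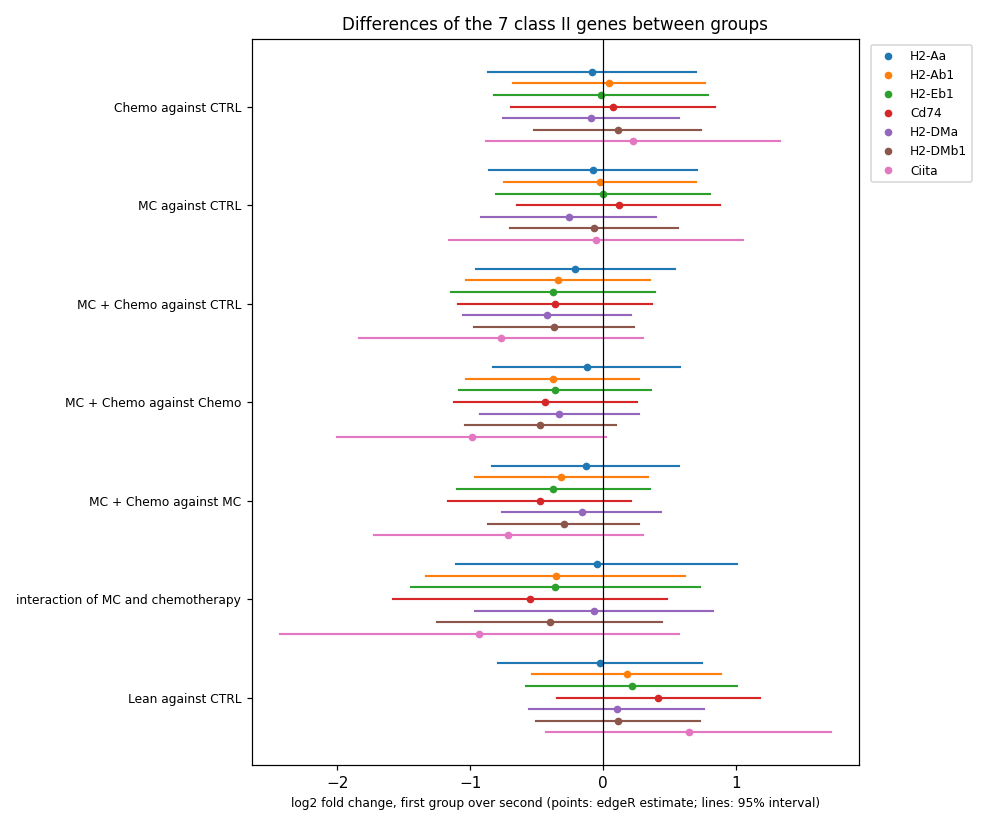
Log2 fold change of each class II gene (x axis, first group over second) in 7 comparisons from the edgeR fits; points are estimates and lines 95% intervals. All 49 intervals include 0, and the 3 comparisons of MC + Chemo and the interaction have all 7 estimates below 0.

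The larger differences were between single tumors. Over the 24 libraries the 21 pairs of members had a Pearson r of log2 levels from 0.631 (H2-DMa with Ciita) to 0.985 (H2-Ab1 with H2-Eb1), with a median of 0.884, and a Spearman rho from 0.565 to 0.989. The permutation p was at most 0.00103 for r and 0.00443 for rho (21 pairs, Benjamini-Hochberg adjusted at most 0.00103 and 0.00443), and the smallest that 100000 permutations can give is 1e-05. Leaving out the 2 libraries farthest from the median gave an r of 0.521 to 0.978. Subtracting group means gave 0.549 to 0.983, and leaving out the libraries with the additional cleanup gave 0.627 to 0.990. The permutations moved libraries across groups, no pairs of other genes were read beside these, and the libraries share their size factor across genes.

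Each gene was then expressed as a z-score of its log2 level over the 24 libraries and averaged over the 7. MC 6 had the lowest mean z-score at −1.90, followed by MC + Chemo 25 at −1.86, MC + Chemo 52 at −1.75 and CTRL 17 at −1.26. CTRL 44 was highest at 1.21 and MC 59 next at 0.99. Low libraries thus came from 3 of the 5 groups, and CTRL held both the fourth lowest and the highest. The 7 genes took 0.264% of the murine counts in MC 6 and 1.12% in MC 59, with a mean of 0.888% ± 0.0837 in Lean and 0.590% ± 0.267 in MC + Chemo. None of the 35 combinations of gene and group held a library that stood apart by Dixon's test.

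The ratio between chains was steadier than their level. H2-Aa over H2-Ab1 ranged from 1.20 to 1.73 in 21 libraries and was 0.868 in Chemo 33, 0.991 in MC 6 and 1.04 in Lean 21. Chemo 33 had the lowest H2-Aa level of its group while its H2-Ab1 level was above the group mean. Cd74 over H2-Ab1 ranged from 0.506 in CTRL 70 to 0.980 in Lean 21, and H2-Eb1 over H2-Ab1 from 0.703 to 0.993.

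**Figure D3:**
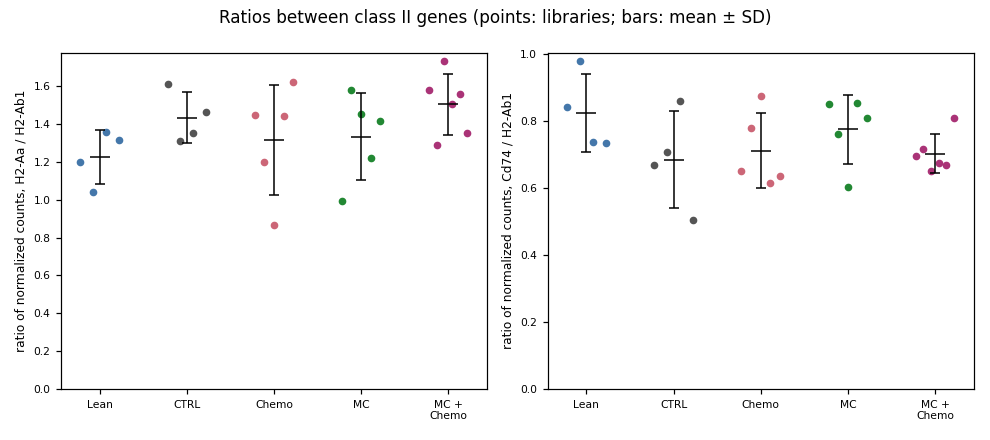
Ratio of normalized counts of H2-Aa to H2-Ab1 (left) and of Cd74 to H2-Ab1 (right) in the 5 groups; points are libraries and bars mean ± SD. Chemo 33, MC 6 and Lean 21 lie lowest on the left at 0.868, 0.991 and 1.04, and CTRL 70 lies lowest on the right at 0.506.

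Markers of the cells that carry class II were read beside these levels. In bulk tissue, fewer cells of a type and less RNA per cell cannot be told apart. The mean log2 level of 13 dendritic cell genes had an r of 0.907 (rho 0.793) with the mean z-score over the 24 libraries. It was 0.859 without the 2 farthest libraries and 0.8996 with group means subtracted. Among them Batf3 (r = 0.80), Clec9a (0.79) and Xcr1 (0.79), which mark or build the cross-presenting lineage, followed the members closely. So did Siglech (0.73) of plasmacytoid cells and Flt3 (0.79). Of the 13 genes 9 had an r above 0.5, whereas Zbtb46 (0.45), Fscn1 (0.43), Clec10a (0.27) and Cd209a (0.23) did not. Xcr1 was at 0 in MC 6 and Clec9a at 0 in MC + Chemo 25. These are descriptions over libraries that share scaling and depth.

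The 14 genes of the macrophage and monocyte list had an r of 0.376 (rho 0.223), which was −0.08 without the 2 farthest libraries and 0.602 with group means subtracted. Csf1r, the receptor that macrophages need to survive, had 0.79 (0.86 with group means subtracted). Ccr2 of monocytes had 0.64 (0.82) and C1qa of complement 0.23 (0.49). Csf1r and Ccr2 were the only 2 of the 14 with an r above 0.5. The lowest were Cd163 at −0.09 and Plac8 at −0.07. MC 6 was low in both lists, with a dendritic cell mean of 4.92 and the lowest macrophage mean of all libraries at 8.85. CTRL 17 had a dendritic cell mean of 5.66, below the median of 6.29, and a macrophage mean of 10.51, above the median of 10.07. Its level of Ptprc (CD45, carried by all leukocytes) was 1607, above the median of 1448. Ptprc was below that median in the other libraries lowest in class II, at 551 in MC 6, 1006 in MC + Chemo 25 and 379 in MC + Chemo 52. MC 41 was rich in muscle at 11.13 and fat at 11.81 and had a mean z-score of −0.64. The r of the mean z-score with the muscle list was −0.09, with the adipocyte list −0.20 and with Ptprc 0.784. Whether cell content accounts for the class II levels was not tested.

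**Figure D4:**
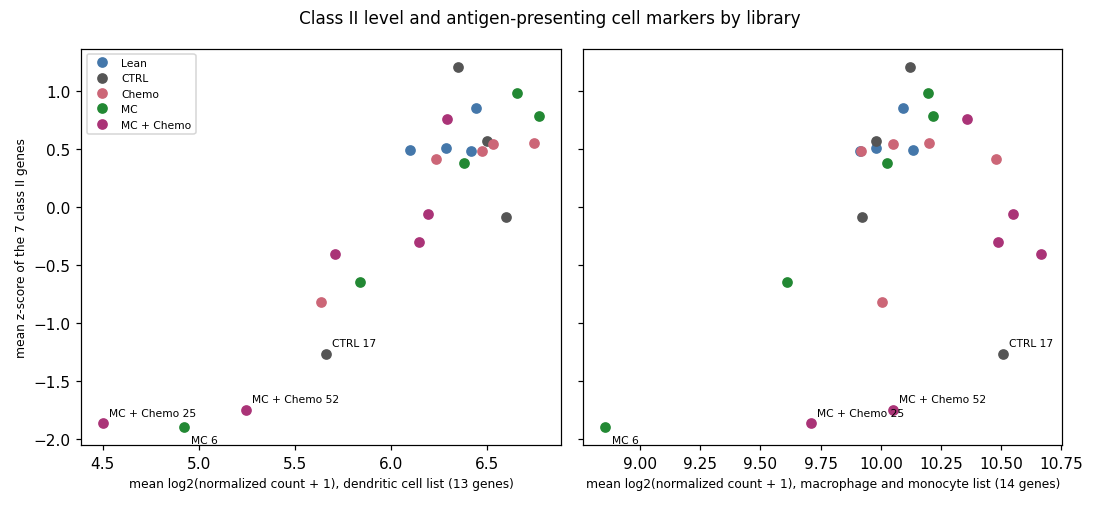
Mean z-score of the 7 class II genes (y axis) against the mean log2(normalized count + 1) of the dendritic cell list (left) and the macrophage and monocyte list (right); each point is a library and the 4 lowest are named. MC 6, MC + Chemo 25 and MC + Chemo 52 are also lowest on the left axis, whereas CTRL 17 lies to the right in the right plot.

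The dendritic cell list was read by group as well. Its median log2 fold change against CTRL was −0.02 in Chemo, −0.22 in MC and −0.01 in Lean. In MC + Chemo against CTRL, 10 of 13 were below 0 (median −0.57) and 5 had an unadjusted edgeR p below 0.05, all lower (12.4% of all genes in either direction). edgeR called 0 of the 13, and DESeq2 (0.715% of all genes) called Ccl22, a chemokine of mature dendritic cells (log2 fold change −1.75, adjusted p = 0.0308, against an edgeR adjusted p of 0.172). The summed level of the list was 1539 to 2714 in MC + Chemo and 2818 to 2983.5 in CTRL, 1777.5 to 3002 in Chemo, 2008 to 4196 in MC and 2360 to 2834 in Lean. MC + Chemo and CTRL did not overlap in this sum, of which Clec10a, with a mean of 885, and Fscn1, with 775, are the largest parts. The groups did not overlap in 2.54% of single genes, but that share is no background for a sum of 13 genes, and none was computed. The list was chosen with earlier results of these data known. Of the macrophage and monocyte list 11 of 14 were above 0 (median 0.15), and the summed levels of 30060 to 42300 in MC + Chemo and 28847 to 35318 in CTRL overlapped.

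Beyond the members, edgeR called 0 of 22 further genes of the class II pathway in each comparison, and DESeq2 called 0 of 23. At an unadjusted edgeR p below 0.05 2 of the 22 passed in Chemo against CTRL (4.53% of all genes), 2 in MC against CTRL (11.8%) and 2 in MC + Chemo against CTRL (12.4%). There were 5 in MC + Chemo against Chemo (11%), 2 in MC + Chemo against MC (9.87%), 2 in the interaction (6.87%) and 0 in Lean against CTRL (3.11%). Rfx5, a subunit of the factor that recruits Ciita to class II promoters, had 94.8 ± 25.9 in Chemo, 61.6 ± 8.22 in CTRL and 60.2 ± 7.81 in MC + Chemo. Its log2 fold change was 0.62 in Chemo against CTRL (edgeR adjusted p = 1.00) and −0.66 in MC + Chemo against Chemo (edgeR adjusted p = 0.283). H2-DMb2 had −0.87 in the latter (edgeR adjusted p = 0.367). Ctsl, a lysosomal protease, had 0.78 in MC + Chemo against MC (edgeR adjusted p = 0.475).

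Interferon gamma induces Ciita in macrophages, and 14 genes of its receptors, signaling and response were read beside the members. None was called by edgeR in any comparison. At an unadjusted edgeR p below 0.05 there were 5 in MC + Chemo against CTRL, all lower (12.4% of all genes), and 4 in Chemo against CTRL, 3 lower and 1 higher (4.53%). MC against CTRL had 2, both lower (11.8%), MC + Chemo against Chemo 2, both lower (11%), and MC + Chemo against MC 2, 1 in each direction (9.87%), while the interaction (6.87%) and Lean against CTRL (3.11%) had 0. Cxcl9, a chemokine induced by interferon gamma, had 478 ± 344 in MC + Chemo, 641 ± 140 in Chemo, 1009 ± 417 in MC, 1427 ± 235 in CTRL and 1358 ± 332 in Lean. Its log2 fold change in MC + Chemo against CTRL was −1.57, with an adjusted p of 0.171 by edgeR and 0.0255 by DESeq2, which called it. In Chemo against CTRL it was −1.15 (edgeR adjusted p = 1.00), while the members had a median of 0.04 there. Gbp2, a guanylate-binding protein of the same response, had −0.87 in Chemo against CTRL (edgeR adjusted p = 0.741).

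The 10 murine genes outside the members whose log2 level was most like their mean z-score, among 11079 with a mean above 30, were Irf8 (r = 0.888), Jaml (0.887), Syngr2 (0.876), Plcg2 (0.868), Trpv2 (0.858), Ptprcap (0.854), Rassf4 (0.843), Pip4k2a (0.843), Ptpn6 (0.843) and Slamf8 (0.842). Over all 11079 the median r was −0.02, and 8.05% had an r above 0.5. Irf8, a factor required for cross-presenting dendritic cells, ranged from 503 in MC + Chemo 52 to 1769 in Chemo 33.

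The tumor cells carry the human counterparts, counted in the human table. Human CD74 had a mean of 983 over the 24 libraries, from 35.5 in CTRL 17 to 1979 in MC + Chemo 52. MC + Chemo 52 therefore had the most human CD74 and the least murine Cd74. Over the 24 libraries the r between human and murine levels was 0.247 and the rho 0.041, and the r without the 2 farthest libraries was 0.465. By group, human CD74 was 878 ± 304 in Lean, 634 ± 443 in CTRL, 1065 ± 127 in Chemo, 838 ± 164 in MC and 1339 ± 388 in MC + Chemo, where murine Cd74 had its lowest mean at 5411 ± 1811. Human CD74 counts came to 13.8% of murine Cd74 counts, and how reads matching both genomes were assigned is not stated. HLA-DRA ranged from 0 in CTRL 17 to 362 in MC + Chemo 52.

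**Figure D5:**
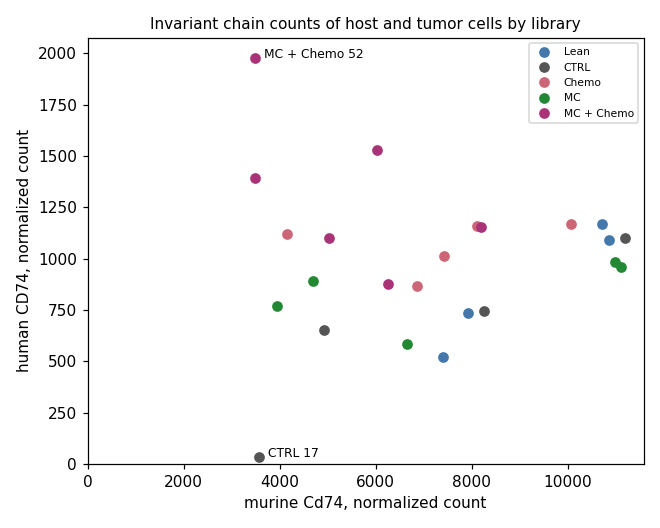
Normalized counts of human CD74 (y axis) against murine Cd74 (x axis), each scaled within its own genome; points are the 24 libraries, colored by group. MC + Chemo 52 has the highest human level at 1979 and the lowest murine level at 3474, and CTRL 17 the lowest human level at 35.5.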

How the data were processed

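Tumor RNA was made into QuantSeq 3′ libraries and read as 50-base forward reads. The authors aligned the reads with BlueBee and deposited read counts per gene for each genome. The deposited normalized signal tables hold the counts divided by DESeq2 size factors. The submitters' processing notes name DESeq2 1.22.2 and GRCm38. The human build is not given in the sources used here. No table column belonged to an unmapped sample (0 columns).

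Murine counts were tested with the edgeR 4.0.16 quasi-likelihood test (limma 3.58.1, R 4.3.3) with TMM scaling, filterByExpr and Benjamini-Hochberg adjustment over all genes tested, in 1 fit of the 20 obese libraries, or of all 24 for Lean against CTRL. DESeq2 1.42.0 was an alternative. Levels were taken as log2(normalized count + 1) for correlations and list means. The chain was tested on simulated counts with the same dispersion for every gene, which does not show its power on these tumors. No replicate pair of the 47 within groups was identical.

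The genes named are the 7 members, up to 3 genes per comparison with the lowest edgeR p from the class II pathway and interferon gamma lists, the 10 genes most like the members, and cell type markers. Members and lists were chosen with earlier results of these data known. Of the dendritic cell list, Ccl22 and Itgax were named after their values were seen. Other listed T and B cell markers were not analysed here.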

Additional observations from a re-analysis of the deposited data

How the results depend on the processing

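The 7 genes were refitted with DESeq2 size factors, DESeq2, no filter on low counts, only the groups compared, all 24 libraries, MC + Chemo 5 as MC or left out, the 3 cleanup libraries left out, muscle and adipocyte genes taken out, and each library left out in turn. No member was called under any of these, and the lowest adjusted p was 0.274. Over all murine genes the main edgeR fit called 0 in each comparison. Without CTRL 31 edgeR called 1 each in Chemo, MC + Chemo and Lean against CTRL. DESeq2 called 14 in Chemo, 226 in MC and 119 in MC + Chemo against CTRL. It called 21 in MC + Chemo against Chemo, 8 in MC + Chemo against MC, 0 in the interaction and 1 in Lean against CTRL. The cause of the difference between the tools was not tested. Of 973 values for single members, 911 kept their sign and 62 had the opposite sign, 59 of them with a library left out. Without the cleanup libraries the log2 fold changes in MC against CTRL were 0.071 for H2-Ab1, 0.0521 for H2-DMb1 and 0.098 for H2-Eb1. With CPM in place of size factors, no log2 ratio of a group mean to the CTRL mean moved by more than the SD of the log2 level in that group. Levels of single libraries were not compared in this way.

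With a library left out, 21 of 49 values could take the opposite sign. In Chemo against CTRL the ranges were −0.14 to 0.39 for Cd74, −0.25 to 0.046 for H2-Aa, −0.16 to 0.19 for H2-Ab1, −0.31 to 0.28 for H2-DMa, −0.093 to 0.38 for H2-DMb1 and −0.22 to 0.23 for H2-Eb1. In MC against CTRL they were −0.12 to 0.41 for Cd74, −0.26 to 0.16 for Ciita, −0.27 to 0.13 for H2-Aa, −0.25 to 0.14 for H2-Ab1, −0.49 to 0.10 for H2-DMa, −0.29 to 0.19 for H2-DMb1 and −0.23 to 0.23 for H2-Eb1. In the interaction they were −0.27 to 0.14 for H2-Aa and −0.44 to 0.15 for H2-DMa, and in Lean against CTRL −0.20 to 0.10 for H2-Aa, −0.035 to 0.32 for H2-Ab1, −0.12 to 0.47 for H2-DMa and −0.090 to 0.38 for H2-DMb1. H2-Aa ranged from −0.32 to 0.019 in MC + Chemo against Chemo and from −0.35 to 0.056 in MC + Chemo against MC. The median over the members ranged from −0.16 (without CTRL 17) to 0.24 (without CTRL 44) in Chemo against CTRL, from −0.26 (without CTRL 17) to 0.14 (without MC 6) in MC against CTRL and from −0.04 (without CTRL 17) to 0.46 (without CTRL 44) in Lean against CTRL. In MC + Chemo against CTRL it stayed below 0, from −0.59 (without CTRL 17) to −0.11 (without CTRL 44). No paired analysis was possible because mouse numbers are unique to each group.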

Other observations

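Lymphoid markers were present at low levels in these hosts. The r with the mean z-score of the class II genes was 0.730 (rho 0.502) for the 8 genes of the NK and innate lymphoid list, 0.661 (rho 0.661) for 4 of the 9 listed T cell genes and 0.697 (rho 0.645) for 4 of the 9 listed B cell genes, and 0.146 for the neutrophil list. The summed level of the NK and innate lymphoid list ranged from 179 in an MC library to 898 in a Chemo library, that of the T cell list from 57.1 to 202 and that of the B cell list from 127 to 434. The T cell genes read were Trbc1, Trbc2, Cd4 and Cd8b1, the last at 0 in 6 libraries. The B cell genes read were Cd79b, Ighm, Cd22 and Fcrla, of which Ighm had the highest mean at 215. Whether these tags came from T or B cells was not tested. Each relation is a description over 24 libraries that share scaling, with no test.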
